A study of Mus musculus with 6 samples.

Results

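The cAMP phosphodiesterases are the enzymes that break down cyclic AMP (cAMP), the second messenger made by adenylyl cyclases when a receptor coupled to the stimulatory G protein Gs is occupied. By removing cAMP, these enzymes set how strongly and how long protein kinase A, the exchange protein Epac and the transcription factor CREB are engaged, and agents that raise cAMP are known to dampen cytokine production in macrophages. The families differ in substrate and drug sensitivity: PDE3 hydrolyzes both cAMP and cGMP and is inhibited by cGMP, PDE4 is specific for cAMP and is the target of rolipram, and PDE7 and PDE8 are specific for cAMP but resist rolipram. The genes described here were Pde3b, Pde4a, Pde4b, Pde4d, Pde7a, Pde7b and Pde8a, 7 of the 22248 genes in the deposited expression matrix. They were taken by gene name and had been chosen by the FPKM difference between genotypes in the same 6 libraries, so their differences between genotypes are given as a description and without a test.

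RNA was sequenced from resting bone-marrow-derived macrophages (BMDMs), which are bone marrow cells grown into macrophages in culture, of control and CITED2-deficient C57BL/6 mice at postnatal week 10 by the labels, with 3 libraries per genotype. Control Lyz2cre mice carried 1 Cre allele at the Lyz2 locus, which is active in myeloid cells, and the CITED2-deficient Cited2 fl/fl:Lyz2cre mice carried 2 floxed Cited2 alleles and the same 1 Cre allele. The control mice had no floxed allele, so effects of losing CITED2 and of the floxed alleles or the sequence linked to them cannot be told apart. No label states that the libraries of a genotype came from separate mice, so the spread between them may be technical.

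Values are in FPKM, the number of fragments of a gene relative to its length and to all mapped fragments of the library. The recovered depth was 17289287 to 18952076 fragments in control and 22583991 to 26100405 in CITED2-deficient libraries. Cited2, the deleted gene, was at 71.7, 79.3 and 75.5 FPKM in control and at 9.27, 7.22 and 7.53 FPKM in CITED2-deficient BMDMs (log2 fold change -3.09, SE 0.082, limma adjusted p = 6.57e-09). The 10 macrophage markers were all detected, and their summed FPKM was 6031 to 6098 in control and 5801 to 5907 in CITED2-deficient libraries. Of these 10 markers 5 were lower and 2 higher at a limma adjusted p under 0.05, and 3 did not pass. Of all tested genes 34.6% were lower and 16.7% higher. After a median-ratio scaling of the libraries 5 of the markers were lower and 4 higher, against 21.3% and 23.1% of all tested genes. Itgam, an integrin subunit of myeloid cells, fell from 89.7 ± 0.865 to 50.9 ± 1.69 FPKM, whereas Fcgr1, an IgG receptor, rose from 172 ± 0.793 to 482 ± 17.2 FPKM and Ptprc, the pan-leukocyte marker, from 212 ± 2.24 to 338 ± 12.6 FPKM (limma adjusted p = 1.77e-07, 1.49e-09 and 3.12e-07). Lyz2 itself fell from 31.3 ± 1.03 to 9.75 ± 0.333 FPKM (SD, n = 3), a value in which fragments shared with the closely similar Lyz1 may be split. Markers of other cells also moved with genotype. All 8 of the 8 fibroblast markers that could be tested were higher in CITED2-deficient BMDMs, with a sum over the 10 markers of 54.0 to 63.8 FPKM in control and 206 to 599 FPKM in CITED2-deficient libraries, the highest being replicate 1. Pdgfrb (0.936 FPKM) and Postn (0.394 FPKM) averaged under 1 FPKM in control, so they could be tested only through their CITED2-deficient values. Of 8 tested neutrophil and granulocyte precursor markers 6 were lower and 1, Ltf, was higher (94.3 to 177 FPKM). Their summed values overlapped (740.3 to 809.5 against 661 to 779.8 FPKM), but S100a8, S100a9, Ngp and Ltf make up most of that sum. The granule genes Mpo (16.2 ± 2.32 to 1.95 ± 0.271 FPKM), Elane (12.4 ± 0.491 to 2.15 ± 0.0701 FPKM) and Prtn3 (14.3 ± 0.488 to 2.52 ± 0.385 FPKM) fell strongly. In RNA from whole cultures, fewer cells of a type and less RNA per cell cannot be told apart.

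The promoters shown are those of Pde7b and Pde8a, the members with the largest difference and the highest overall level, and those in which a searched motif was found. RefSeq promoter windows (GRCm38.p6, 250 bases before to 50 after a start) were held for 5 of the 7 genes, 10 windows in all. Each line gives the 250 bases before the start, 5′ to 3′ on the strand of the gene, with matches to the searched motifs in capitals. The Pde7b window lies at chr10:20548329-20548578 on the minus strand, inside the annotated span of the gene. The Pde8a window lies at chr7:81213015-81213264 on the plus strand. The Pde4a window shown is at chr9:21183851-21184100 and the Pde4b windows are at chr4:102421305-102421554 and chr4:102569810-102570059, all on the plus strand.
Pde7b: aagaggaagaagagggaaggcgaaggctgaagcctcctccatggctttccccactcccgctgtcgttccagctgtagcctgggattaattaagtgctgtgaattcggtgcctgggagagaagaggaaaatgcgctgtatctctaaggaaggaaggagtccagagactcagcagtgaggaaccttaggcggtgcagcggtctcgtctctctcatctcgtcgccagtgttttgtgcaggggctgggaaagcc
Pde8a: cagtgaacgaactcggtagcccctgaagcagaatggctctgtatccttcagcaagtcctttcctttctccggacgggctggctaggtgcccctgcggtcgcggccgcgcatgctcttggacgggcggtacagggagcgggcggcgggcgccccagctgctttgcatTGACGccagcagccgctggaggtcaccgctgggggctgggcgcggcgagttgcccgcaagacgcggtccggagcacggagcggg
Pde4a, second start: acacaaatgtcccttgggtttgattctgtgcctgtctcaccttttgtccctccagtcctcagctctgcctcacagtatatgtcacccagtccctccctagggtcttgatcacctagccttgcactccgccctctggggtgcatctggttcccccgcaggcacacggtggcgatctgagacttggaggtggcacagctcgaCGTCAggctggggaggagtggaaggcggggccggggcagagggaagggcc
Pde4b, first start: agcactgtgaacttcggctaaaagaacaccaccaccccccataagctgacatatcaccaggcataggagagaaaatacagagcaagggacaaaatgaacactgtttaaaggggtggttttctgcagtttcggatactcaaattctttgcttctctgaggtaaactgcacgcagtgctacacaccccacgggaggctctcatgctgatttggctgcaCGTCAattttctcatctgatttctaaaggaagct
Pde4b, second start: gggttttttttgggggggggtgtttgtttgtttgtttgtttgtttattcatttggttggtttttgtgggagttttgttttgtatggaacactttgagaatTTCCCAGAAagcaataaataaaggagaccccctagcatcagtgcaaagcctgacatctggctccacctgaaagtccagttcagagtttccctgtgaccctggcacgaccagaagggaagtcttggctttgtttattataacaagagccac
The motifs searched on both strands were the full cAMP response element TGACGTCA, its shorter form TGACG, which the full form contains and which reads CGTCA where it lies on the other strand, the STAT site TTCNNNGAA and the interferon-stimulated response element. The full cAMP response element and the interferon-stimulated response element had no match in any of the 10 windows, and they occur in 1.79% and 3.44% of the 32851 windows of the whole table. The shorter form matched once in the Pde8a window at position -84, once in 1 of the 3 Pde4a windows at position -50 and once in 1 of the 4 Pde4b windows at position -34, counted from the start, and 20.8% of all windows hold it. The STAT site matched once, in the second Pde4b window at position -150, against 8.30% of all windows. None of these letters occurred in the Pde7b window or in the single Pde4d window. A match describes the sequence and does not show binding.

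Of all members Pde7b differed most between the genotypes, while its paralog Pde7a did not separate them. Pde7b, a rolipram-resistant cAMP-specific enzyme, was at 5.72, 5.39 and 5.54 FPKM in control and at 30.8, 33.4 and 31.8 FPKM in CITED2-deficient BMDMs. Every CITED2-deficient library was far above every control library, and the ratio of the means was 5.77. These values rested on 281, 242 and 273 recovered fragments in control and 2036, 1959 and 2157 in CITED2-deficient libraries. On the log2(FPKM + 1) scale the difference was 2.33 (SE 0.056), the 57th largest rise among the 11687 genes that averaged 1 FPKM or more. It lay between 2.30 and 2.36 when any library was left out. The summed fibroblast markers were above control in every CITED2-deficient library, so leaving out 1 library does not test their part. Pde7b spans chr10:20398004-20725078 on the minus strand, where it overlaps the pseudogenes Gm17229 and Gm17230. Whether fragments were assigned by strand was not given in the sources used here. Pde7a, its paralog on chromosome 3, was at 18.5, 17.2 and 15.5 FPKM in control and at 19.1, 17.6 and 18.1 FPKM in CITED2-deficient BMDMs. These ranges overlapped, with a log2 difference of 0.10 (SE 0.070), which was 0.032 without control replicate 3, 0.065 without CITED2-deficient replicate 1 and 0.16 without control replicate 1. The antisense gene Gm16093 overlaps Pde7a.

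**Figure D1:**
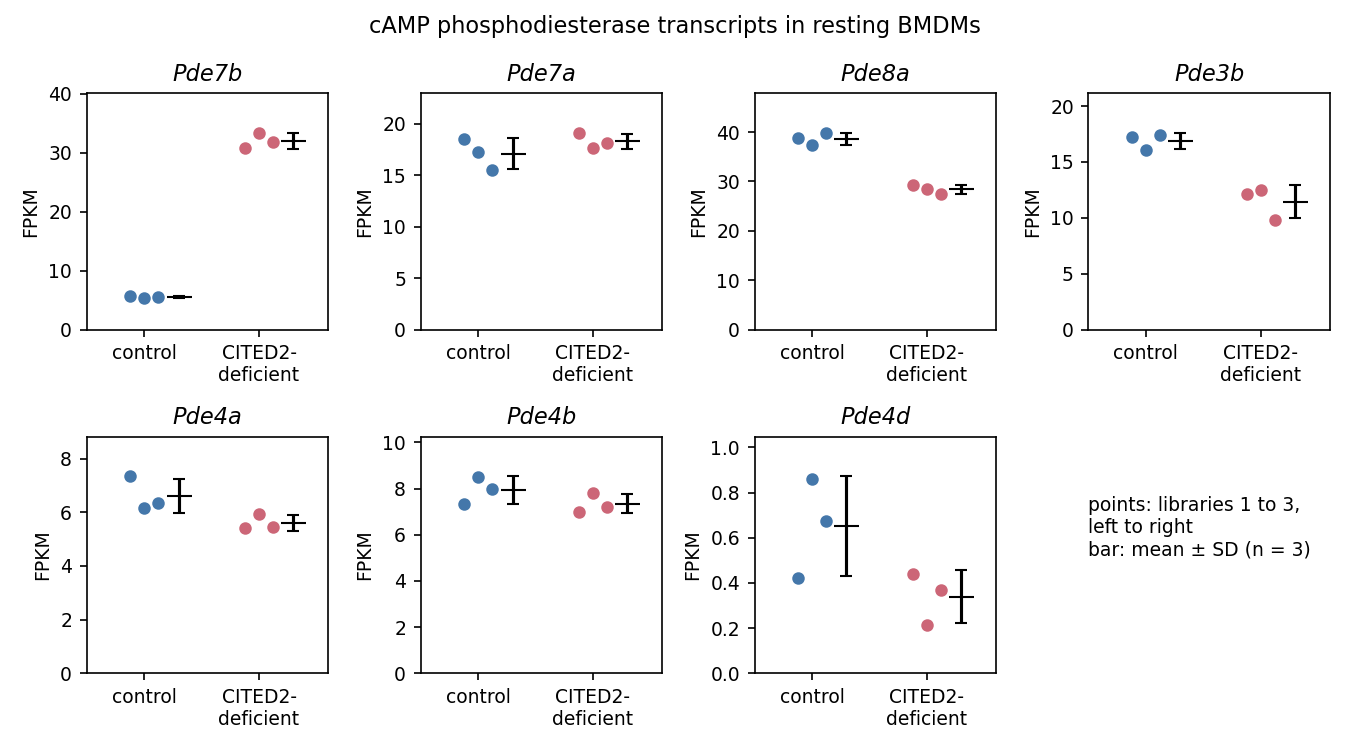
FPKM of the 7 cAMP phosphodiesterase genes (vertical axes, each from 0) in the 3 control (blue) and 3 CITED2-deficient (red) libraries; points are libraries and bars are mean ± SD. Pde7b sits at 5.39 to 5.72 FPKM in control and 30.8 to 33.4 FPKM in CITED2-deficient BMDMs, whereas Pde8a, Pde3b and Pde4a sit lower in the CITED2-deficient libraries without overlap.

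Pde8a and Pde3b were lower in CITED2-deficient BMDMs. Pde8a, a cAMP-specific enzyme of high affinity, was at 38.7, 37.3 and 39.8 FPKM in control and at 29.3, 28.5 and 27.4 FPKM in CITED2-deficient libraries. The groups were separate, with means of 38.6 ± 1.23 and 28.4 ± 0.963 FPKM (SD, n = 3) and a log2 difference of -0.43 (SE 0.045). Pde3b, the cGMP-inhibited enzyme through which insulin limits cAMP in fat cells, was at 17.2, 16.1 and 17.4 FPKM in control and at 12.1, 12.5 and 9.77 FPKM in CITED2-deficient libraries. Again all CITED2-deficient values were lower, with a log2 difference of -0.53 (SE 0.087). The spread was wider in the CITED2-deficient libraries (SD 1.48) than in control (SD 0.703), because replicate 3 was low.

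The rolipram-sensitive PDE4 genes had lower means in CITED2-deficient BMDMs, but their libraries lay close together or overlapped. Pde4a was at 7.34, 6.17 and 6.34 FPKM in control and at 5.41, 5.93 and 5.46 FPKM in CITED2-deficient BMDMs. The groups did not overlap, yet the nearest libraries of the 2 genotypes lay at 6.17 and 5.93 FPKM, and the log2 difference was -0.20 (SE 0.085). Pde4b, the PDE4 gene most tied to cytokine production in myeloid cells, was at 7.33, 8.51 and 7.98 FPKM in control and at 7.0, 7.79 and 7.22 FPKM in CITED2-deficient BMDMs. Its ranges overlapped and its log2 difference was -0.10 (SE 0.077), or -0.054 without control replicate 2 and -0.15 without control replicate 1. Pde4d did not reach a mean of 1 FPKM and was left out of the fit. It was at 0.422, 0.861 and 0.673 FPKM in control and at 0.439, 0.212 and 0.367 FPKM in CITED2-deficient libraries, from 9 to 28 fragments each. The means were 0.652 ± 0.220 and 0.339 ± 0.116 FPKM (SD, n = 3), a ratio of 0.520, and the ranges overlapped through control replicate 1 and CITED2-deficient replicate 1. With so few fragments a difference of this gene is poorly determined.

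Of the 6 genes past the filter on low values, Pde7b lay above and Pde8a, Pde3b and Pde4a lay below the control libraries without overlap, in a matrix where 59.9% of all tested genes had groups that did not overlap (19.0% higher and 40.9% lower). This count carries no evidence about the genes, because the same contrast chose them. The median log2 difference over all tested genes was -0.10, and a median-ratio scaling of the libraries moved it to -0.0069. Under that scaling the log2 differences were 2.43 for Pde7b, 0.20 for Pde7a, -0.33 for Pde8a, -0.43 for Pde3b, -0.12 for Pde4a and -0.0081 for Pde4b. Relative to the bulk of genes, Pde4b thus lay at the median, and no member changed sign.

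**Figure D2:**
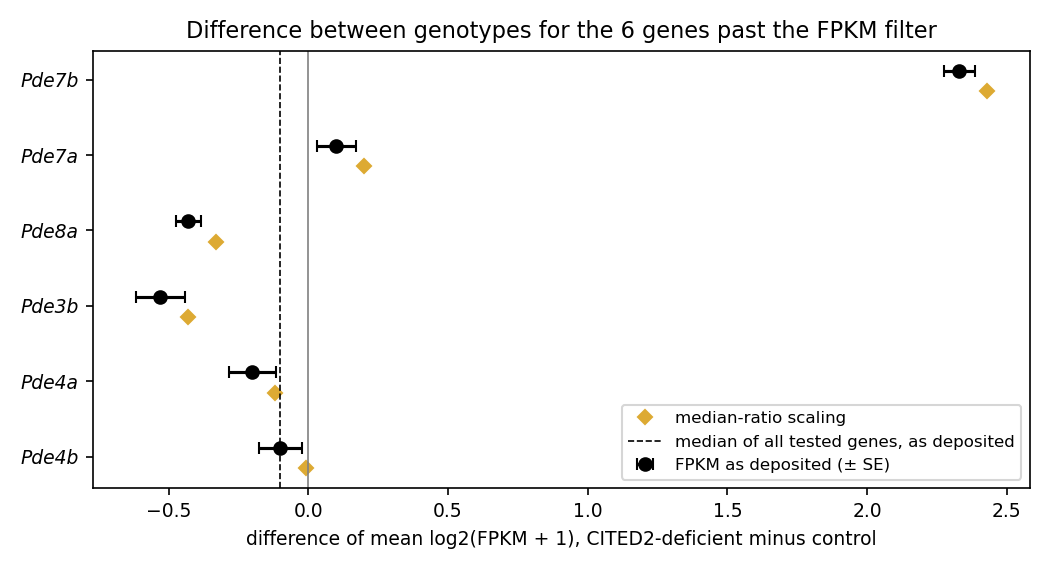
Difference of mean log2(FPKM + 1) between CITED2-deficient and control BMDMs for the 6 genes past the filter, with FPKM as deposited (black, bars are SE) and after median-ratio scaling (yellow). Pde7b lies at 2.33 and 2.43, the other genes lie between -0.53 and 0.20, and the dashed line is the median of all tested genes at -0.10.

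The order of the transcripts by level also differed. FPKM are divided by length, so genes can be set side by side, but only roughly. The length that fitted these FPKM was the mean over the annotated transcripts of a gene, 3 for Pde8a and 20 for Pde4d. Levels and shares compared between genes thus depend on the annotation and not only on the transcripts expressed. In control BMDMs Pde8a was the most abundant, followed by Pde7a and Pde3b, which overlapped, then Pde4b and Pde4a, which overlapped, then Pde7b and Pde4d. The order of Pde7a and Pde3b turned when control replicate 1 or 2 was left out. In CITED2-deficient BMDMs the order was Pde7b, Pde8a, Pde7a, Pde3b, Pde4b, Pde4a and Pde4d, with no overlap between neighbors. Pde7b thus stood in place 6 in control and in place 1 in CITED2-deficient BMDMs. As a share of the summed FPKM of the 7 genes, Pde7b was 5.95% ± 0.0604 in control and 31.0% ± 1.19 in CITED2-deficient BMDMs (SD, n = 3). Pde8a was 41.4% ± 1.14 and 27.5% ± 0.599, and Pde3b was 18.1% ± 0.552 and 11.1% ± 1.13. Pde7a kept close values of 18.3% ± 1.5 and 17.7% ± 0.960.

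The summed level moved less than its makeup. The 7 genes together gave 95.2, 91.5 and 93.2 FPKM in control and 104, 106 and 100.1 FPKM in CITED2-deficient libraries. Without Pde7b the other 6 gave 89.5, 86.1 and 87.6 FPKM in control and 73.4, 72.5 and 68.3 FPKM in CITED2-deficient libraries. The sum over all members was thus higher and the sum without Pde7b lower in every CITED2-deficient library. For Pde4a, Pde4b and Pde4d alone the sum was 15.2 ± 0.293 FPKM in control and 13.3 ± 0.573 FPKM in CITED2-deficient BMDMs. These are levels of RNA, and enzyme activity was not measured in these files.

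**Figure D3:**
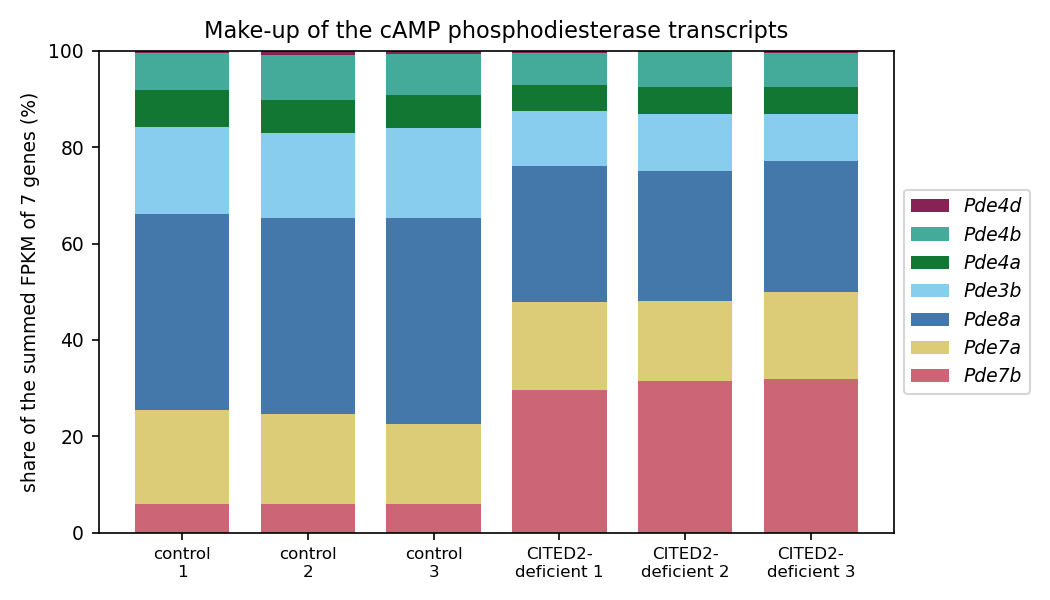
Share of each gene in the summed FPKM of the 7 cAMP phosphodiesterases (vertical axis, percent) in each of the 6 libraries. The Pde7b segment covers 5.89 to 6.01% in the control libraries and 29.6 to 31.8% in the CITED2-deficient libraries, and the Pde8a segment is smaller in the latter.

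Of 17 other phosphodiesterase genes named for comparison, 14 were listed and 4 reached the filter. Pde1b, a calcium and calmodulin-dependent enzyme that hydrolyzes both cyclic nucleotides, was more abundant than any member, at 51.5 ± 3.56 FPKM in control and 59.7 ± 1.27 FPKM in CITED2-deficient BMDMs, a rise of 0.21 on the log2 scale (limma adjusted p = 0.00704). Pde1c, of the same family, was at 0.543, 0.472 and 0.430 FPKM in control and at 2.14, 2.15 and 1.87 FPKM in CITED2-deficient BMDMs (difference of mean log2(FPKM + 1) 1.04, adjusted p = 0.000159). The ratio of the Pde1c means was 4.27, which this scale understates. All CITED2-deficient values of Pde1c were above those of control, as were those of 19.0% of all tested genes. Pde1c averaged 0.482 FPKM in control and reached the filter only through the CITED2-deficient libraries, so it could only be higher there. Pde8b, the paralog of Pde8a, was lower (2.93 ± 0.375 against 2.06 ± 0.109 FPKM, log2 fold change -0.36, adjusted p = 0.0245). That call was lost without control replicate 1 (adjusted p = 0.0540) or 3 (0.0865), and likewise without either of the CITED2-deficient replicates 1 (0.0510) and 3 (0.0717). Pde6d, a prenyl-binding subunit without catalytic activity, was at 18.3 ± 2.82 and 16.3 ± 1.08 FPKM and did not pass (adjusted p = 0.223). The 15 listed genes for cAMP-hydrolyzing enzymes are the 7 members, Pde1b, Pde1c, Pde8b and genes under the filter, without Pde6d. Together they summed to 148 ± 5.49 FPKM in control and 168 ± 4.39 FPKM in CITED2-deficient BMDMs.

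The remaining genes of the cAMP pathway were counted in lists by role. Over all the lists, the other phosphodiesterases included, 74 of 129 named genes could be tested, and 15 were higher and 25 lower in CITED2-deficient BMDMs, or 54.1% of those tested. Of all tested genes 51.3% passed, 16.7% higher and 34.6% lower. Their median log2 fold change was -0.069, near the -0.10 of all tested genes. After median-ratio scaling the counts were 20 higher and 20 lower, where 44.4% of all tested genes passed (23.1% higher and 21.3% lower). Without CITED2-deficient replicate 1, in which fibroblast markers were highest, 14 were higher and 24 lower. The sum of those markers was above control in the remaining CITED2-deficient libraries too, so their part was not tested.

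Among the receptors that raise cAMP through Gs, 1 rose, 2 fell and 6 did not pass, where 16.7% of all tested genes were higher and 34.6% lower. Vipr1, a receptor for vasoactive intestinal peptide, was at 2.92, 1.19 and 3.14 FPKM and at 0.463, 0.195 and 0.394 FPKM (log2 fold change -1.29, adjusted p = 0.00191), with control replicate 2 apart from the other 2 control libraries. Its mean was 2.42 FPKM in control and 0.351 FPKM in CITED2-deficient libraries, a ratio of 6.89 for control over CITED2-deficient. Vipr1 thus reached the filter only through control, so it could only be lower in CITED2-deficient BMDMs. Gpr65, the most abundant of the list, was at 30.8 ± 1.25 and 32.4 ± 0.410 FPKM and did not pass (adjusted p = 0.187), although it did after median-ratio scaling (0.0112).

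Of the G protein α subunits, Gnas, which encodes Gs, rose from 44 ± 0.716 to 52.5 ± 4.56 FPKM (adjusted p = 0.00674). Gnai2, the main inhibitory subunit here, fell from 1449 ± 15.2 to 1253 ± 28.6 FPKM (log2 fold change -0.21, adjusted p = 0.000166). Gnai3, also named after its value was seen, was the other of the 2 that fell (log2 fold change -0.14, adjusted p = 0.0179), a call lost after median-ratio scaling (0.530). Of 5 tested adenylyl cyclases, 2 of low level rose and none fell, where 16.7% of all tested genes were higher and 34.6% lower. Both averaged under 1 FPKM in control and reached the filter only through the CITED2-deficient libraries, so they could only be higher there. Adcy2 was at 0.817, 0.508 and 0.551 FPKM in control and at 2.68, 2.68 and 2.71 FPKM in CITED2-deficient BMDMs (difference of mean log2(FPKM + 1) 1.19, adjusted p = 6.58e-05), a ratio of the means of 4.30. Adcy6 was at 0.837 ± 0.183 and 1.85 ± 0.241 FPKM (log2 fold change 0.64, adjusted p = 0.00484). The cyclase with the highest level, Adcy7, was at 109 ± 3.60 and 114 ± 3.39 FPKM and passed only after median-ratio or quantile scaling (adjusted p = 0.181 as deposited, 0.00356 and 0.0489).

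Of 8 tested genes of protein kinase A and its inhibitors 5 fell and 1 rose, where 34.6% of all tested genes were lower, and after median-ratio scaling 4 fell and 1 rose, against 21.3%. The catalytic subunit gene Prkacb was at 106, 107 and 105 FPKM in control and at 73.5, 74.3 and 74.1 FPKM in CITED2-deficient BMDMs (log2 fold change -0.51, adjusted p = 1.02e-06). The libraries of each genotype were close, with SDs of 1.13 and 0.401 FPKM, and the groups did not overlap. The CITED2-deficient values lay below control without overlap in 40.9% of all tested genes. The regulatory subunit genes Prkar2a (54.2 ± 0.745 to 37.7 ± 0.348 FPKM, adjusted p = 3.17e-06) and Prkar1a (237 ± 3.63 to 197 ± 5.82 FPKM, adjusted p = 9.45e-05) fell as well. The gene that rose was the kinase inhibitor Pkib, named after its value was seen (log2 fold change 0.42, adjusted p = 0.000845). In the Epac and Rap list 1 of 6 genes rose and 1 fell. The small GTPase gene Rap2a fell from 25.8 ± 0.601 to 16 ± 0.565 FPKM (adjusted p = 5.22e-06), and Rap2c, named after its value was seen, rose by 0.30 on the log2 scale (adjusted p = 0.000557). Rap1b, the most abundant, was at 480 ± 5.73 and 471 ± 6.03 FPKM (adjusted p = 0.379), with a sign that turned under both other scalings.

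Of 11 anchoring proteins tested, which hold protein kinase A and phosphodiesterases at one site, 4 fell and 1 rose. The share that fell was 36.4%, near the 34.6% of all tested genes. Akap7 fell from 11.0 ± 0.408 to 7.35 ± 1.12 FPKM (adjusted p = 0.00163). Akap13, the most abundant, was at 60.2 ± 4.41 and 58.4 ± 3.02 FPKM (adjusted p = 0.575). Among CREB, its coactivators and their kinases, 3 of 11 fell (27.3%, against 34.6% of all tested genes) and 1 rose. Crtc3, a cAMP-regulated coactivator, fell from 22.0 ± 0.482 to 15.4 ± 0.10 FPKM (adjusted p = 2.73e-05), and Crem, which encodes both activators and repressors, fell from 7.68 ± 0.372 to 5.63 ± 0.601 FPKM (adjusted p = 0.00482). Creb1 itself, the third to fall and named after its value was seen, had a log2 fold change of -0.37 (adjusted p = 0.000325). The acetyltransferase gene Ep300, whose product binds CITED2, rose from 102 ± 6.14 to 117 ± 5.15 FPKM (adjusted p = 0.00863).

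Genes that cAMP is known to induce moved in both directions, with 4 of 9 tested genes rising and 2 falling, out of 18 named. The shares of all tested genes were 16.7% higher and 34.6% lower. Nr4a1, an immediate early nuclear receptor, was at 5.27, 5.95 and 5.29 FPKM in control and at 2.04, 1.84 and 1.81 FPKM in CITED2-deficient BMDMs (log2 fold change -1.17, adjusted p = 1.03e-05). Fos fell from 47.0 ± 0.536 to 31.4 ± 1.49 FPKM (adjusted p = 7.47e-06). In contrast Dusp1, a MAP kinase phosphatase, rose from 18.2 ± 2.59 to 37.5 ± 0.355 FPKM (log2 fold change 1.01, adjusted p = 1.56e-05), and Junb rose from 133 ± 4.01 to 174 ± 8.49 FPKM (adjusted p = 6.08e-05). Thbs1, a matrix glycoprotein, was at 52.5, 41.9 and 49.8 FPKM in control and at 130.3, 104 and 108 FPKM in CITED2-deficient libraries (log2 fold change 1.23, adjusted p = 8.92e-06). The highest Thbs1 value was in the library with the highest fibroblast markers, and the part of those cells in the result was not tested. Ccnd1, named after its value was seen, was the fourth to rise (log2 fold change 0.41, adjusted p = 0.000231). Under the filter, Arg1 was lower without overlap, at 1.58 ± 0.219 FPKM in control and 0.303 ± 0.149 FPKM in CITED2-deficient BMDMs. Il6 (0.0553 to 0.197 FPKM) and Bdnf (0.00893 to 0.109 FPKM), also under it, were higher without overlap. These genes too were named after their values were seen. All of these genes answer to other signals too.

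Of 7 partners of phosphodiesterases or of cAMP removal, 5 fell and 1 rose, where 34.6% of all tested genes were lower and 16.7% higher. After median-ratio scaling 4 fell and 1 rose, against 21.3% and 23.1%. The β-arrestin genes, whose products bring PDE4 to receptors, were Arrb1 (114 ± 3.07 to 87.8 ± 0.882 FPKM, adjusted p = 1.59e-05) and Arrb2 (368 ± 9.02 to 321 ± 6.81 FPKM, adjusted p = 0.000558). Disc1, a scaffold that binds PDE4, was at 2.93 ± 0.664 and 1.94 ± 0.303 FPKM with an adjusted p of 0.0464, and its call was lost on leaving out control replicates 1 (0.157) or 3 (0.119) and on leaving out any 1 of the CITED2-deficient libraries (0.0578 to 0.133).

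**Figure D4:**
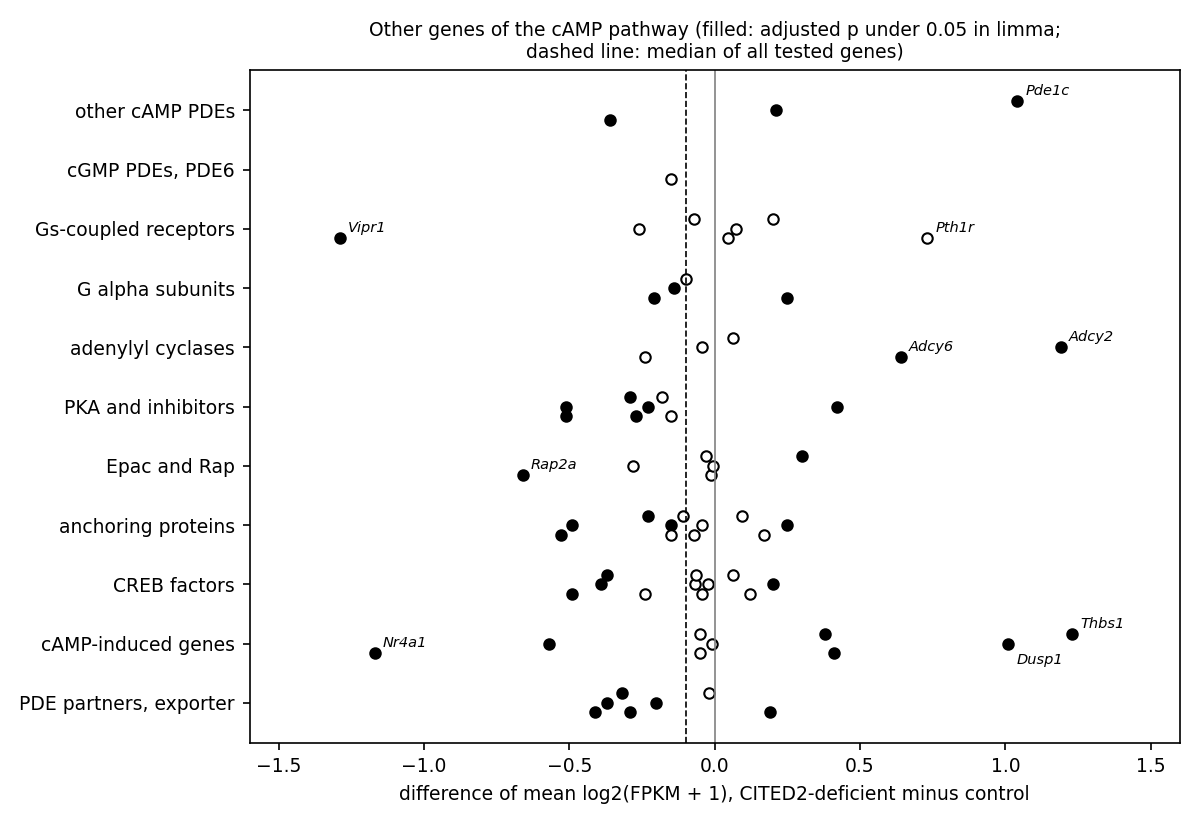
Difference of mean log2(FPKM + 1) between CITED2-deficient and control BMDMs (horizontal axis) for genes of 11 cAMP pathway lists (rows); filled points have an adjusted p under 0.05 in limma, and genes with a difference of at least 0.6 in size are labeled. Vipr1 at -1.29 and Thbs1 at 1.23 are the ends of the genes drawn, and in the protein kinase A row 1 gene lies above 0 and the others lie to the left of the dashed median of all tested genes at -0.10.

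Because Pde7b and Cited2 both lie on chromosome 10, the genes around Cited2 were examined, a choice made after the values were seen. Pde7b begins 2.67 Mb beyond the end of Cited2 (chr10:17723218-17725674 in mm10). Within 5 Mb of Cited2, 31 other genes were tested, and 16 of them passed, 6 higher and 10 lower, or 51.6% against 51.3% of all tested genes. Their log2 fold changes ran from -2.74 to 0.96. The highest, that of Sgk1, a kinase induced by serum and glucocorticoid, lay well under the 2.33 of Pde7b. The lowest, that of Gm26740, was larger in size than the change of Pde7b, and Hmgb1-ps8 near it was at -2.07. The nearest tested neighbors of Pde7b did not pass, with Mtfr2 at -0.16 (adjusted p = 0.422) and Ahi1 at 0.035 (adjusted p = 0.833), although both were near the filter at 1.02 to 1.57 FPKM. The part of the linked chromosome in the Pde7b value was not tested.

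**Figure D5:**
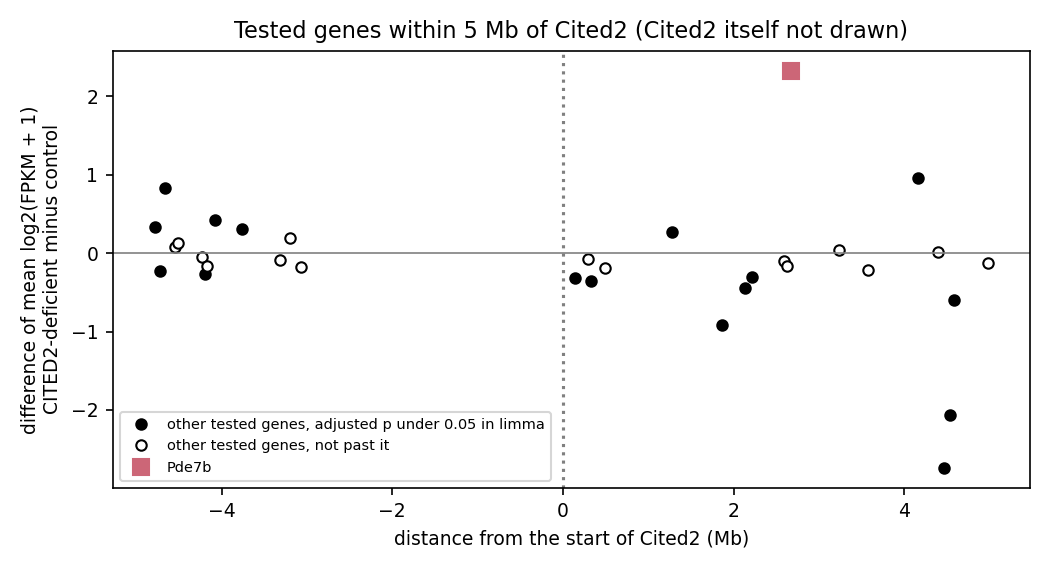
Difference of mean log2(FPKM + 1) between CITED2-deficient and control BMDMs (vertical axis) against distance from the start of Cited2 in Mb (horizontal axis) for the tested genes within 5 Mb, with Pde7b as a red square and filled points for genes with an adjusted p under 0.05 in limma. Pde7b at 2.33 lies above the 31 other genes, which run from -2.74 to 0.96.

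The genes whose values ran most like those of Pde7b over the 6 libraries were Ifit3b (Pearson r = 0.99997), Slfn1 (0.99995) and H2-Q5 (0.99992), out of 11686 others. Slfn1 was at 9.96, 8.78 and 9.48 FPKM in control and at 162, 179 and 168 FPKM in CITED2-deficient BMDMs. Ifit3b, an interferon-induced gene, was at 4.79, 4.31 and 4.43 FPKM and at 58.5, 66.7 and 62.8 FPKM. As for Pde7b, the highest CITED2-deficient value of both was in replicate 2 and the lowest in replicate 1. Choosing the genes by correlation favors such a shared order, so it is no further likeness. All 3 genes belong to families of closely similar members whose fragments may be split. For Pde8a, the member with the highest level, they were Snx32 (0.99969), Tm6sf1 (0.99935) and Ppfibp2 (0.99928). These correlations mostly carry the step between 2 genotypes, since 413 genes passed an r of 0.99 with Pde7b and 150 with Pde8a, and they describe 6 libraries that share genotype and depth.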

How the data were processed

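Total RNA of 6 BMDM libraries was sequenced after removal of ribosomal RNA with a stranded kit. The authors mapped reads to mm10 with STAR and deposited one matrix of FPKM per gene and library from Cuffdiff with the GENCODE annotation, without pooling replicates. Tool versions were not given in the sources used here. FPKM are relative to the mapped total, so strong changes in some genes shift the others. The study's methods give a different mouse age from the labels.

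Samples were grouped by title. The 11687 of 22248 genes that averaged 1 FPKM or more were fitted on log2(FPKM + 1), a scale that understates changes of low genes, with limma 3.58.1 in R 4.3.3 (two-sided, variance trend, no covariates) and Benjamini-Hochberg adjustment over all of them at 0.05. This replaces Cuffdiff, which needs alignments. Log2 differences and log2 fold changes are differences of mean log2(FPKM + 1) unless another setting is named. Fragments were recovered from FPKM with mean transcript lengths of GENCODE vM21, with 22239 genes matched, of which 96.0% gave numbers within 0.02 of whole in all 6 libraries. Such fragments are not independent molecules, and their precision covers counting error only. CITED2-deficient libraries were 1.34 times deeper on average, so low genes are measured better there. The fit was tested on simulated data. Coordinates are those of GENCODE for mm10, 1-based, and promoters are from RefSeq.

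The members and gene lists were chosen with earlier results of these data known. Genes named are the 7 members, Cited2, every other phosphodiesterase tested, and of each other list the genes past the threshold with a log2 fold change of at least 0.5 in size (or, if none, the 2 largest) and its most abundant gene, and the 3 genes most correlated with the member of highest level and with that of largest change. Genes named outside this rule are marked, and 2 that the rule or a count would name are not reported here and are left out of the pathway plot, though the counts include them. Alternatives were the pseudocount, filter, scaling, variance trend, array weights, replicate block, leaving out each library, and limma-voom on recovered fragments.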

Additional observations from a re-analysis of the deposited data

How the results depend on the processing

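Over all alternatives run, 5994 genes past the threshold became 4986 (mean FPKM of at least 5) to 6178 (limma-voom), and 5211 to 5475 when a library was left out. Median-ratio scaling gave 2696 higher and 2490 lower genes in place of 1950 and 4044, and quantile normalization gave 2265 and 3125, so the split by direction depends on the scaling. The log2 difference of Pde7b was 2.33 to 2.52 over the settings that kept every library, and no member fitted changed sign under any alternative. Genes of low level moved more. With a pseudocount of 0.1 and with limma-voom, Pde1c was at 1.89 and 2.07 in place of 1.04, and Adcy2 at 1.97 and 2.12 in place of 1.19. Adcy6 was likewise at 1.07 and 1.14 in place of 0.64, and Vipr1 at -2.42 and -2.70 in place of -1.29. Signs turned for Rap1b (-0.028 as deposited, 0.076 after median-ratio scaling, 0.017 after quantile normalization) and for Akap13 (-0.042 as deposited, 0.06 after median-ratio scaling, and -0.10 to 0.00051 when a library was left out, the latter without CITED2-deficient replicate 3), neither of which passed the threshold in any of these. The causes were not tested beyond the scaling itself. Pde8b also lost its call with no filter (adjusted p = 0.0674) and after median-ratio scaling (0.0642), and Disc1 with no filter (0.124), after median-ratio (0.0967) or quantile scaling (0.0687) and without the variance trend (0.0529).

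Replicate numbers are shared by the genotypes, but samples with the same number did not deviate together (correlations 0.0138, 0.00784 and 0.0402). With 3 libraries per genotype this check cannot exclude a small shared effect. With the replicate block 5708 genes passed, 1895 higher and 3813 lower, and 38 of the other cAMP pathway genes passed in place of 40. Among the genes named, Disc1 lost its call under the block (adjusted p = 0.0636). Depth limits Pde4d, which rests on 9 to 28 fragments per library.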
